A study of Mus musculus with 8 samples.

Results

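The genes of the cytosolic ribosomal proteins were followed in Oxford Nanopore (ONT) long-read libraries of R1 mouse embryonic stem cells, an established line of pluripotent cells. The members were taken by symbol. All symbols made of Rpl or Rps and a number, with or without the letter a, l or x at the end, were included, together with Rplp0, Rplp1, Rplp2 and Rpsa. This gave 81 of the 24421 genes in the count tables, of which 49 belong to the large subunit (Rpl, stalk proteins included) and 32 to the small subunit (Rps and Rpsa). Cells were compared in the 2 states Undiff and Day4. Undiff cells were kept in stem cell growth medium without retinoic acid (RA). The sources differ on their form, since the labels give embryoid bodies (cell aggregates) after 4 days in this medium and the methods give maintained stem cells, in medium with Lif. Day4 libraries came from embryoid bodies that were kept without Lif and then exposed to RA, an inducer of differentiation, for 4 days. The RA concentration is left out because the sources differ on its unit. No gene was altered, and both states come from this single line. Polyadenylated RNA was sequenced either directly (Direct RNA kit, 500 ng input) or after copying into cDNA and PCR (cDNA kit, 50 ng input), with 2 replicates in each of the 4 groups. By the study's methods the replicates were grown and treated apart, and each main test rests on the spread within pairs of libraries.

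The ribosome is built from ribosomal RNA and from these proteins, which are needed in matched amounts. The large subunit joins amino acids, the small subunit reads the mRNA, and the acidic stalk proteins Rplp0, Rplp1 and Rplp2 recruit translation factors. The mRNAs are short, abundant and typically start with a C and a run of pyrimidines, the 5′ terminal oligopyrimidine (TOP) motif, through which growth signals control their translation. A few of the genes have a second expressed copy, such as Rpl10l and Rpl39l, which are best known from the testis. The mouse genome also holds many processed copies of these mRNAs, and a read that fits several places equally well is not assigned to a gene with confidence.

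Start sites and coding sequences are shown for a few genes of the results below, chosen after their values had been seen. RefSeq start sites (GRCm38.p6) were found for 60 members, 10 of them with several. In the following 30-base windows, of which bases 1 to 15 precede the start, capitals mark runs of at least 7 pyrimidines. Rpl35 and Rpl38 fell at Day4 with the cDNA kit, Rpl15 and Rps24 did not pass that test, and Rpl10l and Rpl39l fell most.
Rpl35 (chr2:39005117-39005146, minus strand): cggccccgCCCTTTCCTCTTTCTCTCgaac
Rpl38 (chr11:114668565-114668594, plus strand): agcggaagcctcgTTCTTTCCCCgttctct
Rpl15 (chr14:18270972-18271001, minus strand): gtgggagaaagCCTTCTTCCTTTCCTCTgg
Rps24 (chr14:24490663-24490692, plus strand): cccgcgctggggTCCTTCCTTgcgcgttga
Rpl10l (chr12:66284387-66284416, minus strand): tttggcctccattttgcggctggcggtggg
Rpl39l (chr16:10170213-10170242, plus strand): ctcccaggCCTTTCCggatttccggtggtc

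The letters CTTTC, searched on the sense strand of these windows, occurred in 17 of the 60 members (28.3%), against 4.76% of the 27025 gene symbols in the RefSeq table. A run of at least 7 pyrimidines occurred in 55.0% of the members and in 21.3% of all symbols. CGGAAG, the core letters bound by ETS-family factors, was found on either strand of the full window of 250 bases before to 50 after the start in 68.3% of the members and 18.8% of all symbols. TATAAA on the sense strand occurred in 8.33% and 9.77%. These matches are a description of the letters, and CTTTC is part of some of the pyrimidine runs.

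In coding sequence, Rpl10 and Rpl10l are 84.8% identical, Rpl39 and Rpl39l 85.3%, Rps4x and Rps4l 79.8%, and Rps27 and Rps27l 76.3%. The 30 coding bases with the most differences are given for the first 2 pairs, which hold the genes that fell most, with the differing bases in capitals. Rpl10 and Rpl10l are shown from coding base 118 to 147, with 8 of their 98 differences over 645 coding bases. Rpl39 and Rpl39l are shown from base 116 to 145, with 9 of 23 differences over 156 bases.
Rpl10: aaAgcAaaAgtTgatgaAttCccactTtgT
Rpl10l: aaGgcGaaGgtGgatgaGttTccactCtgC
Rpl39: cTaagAgAagacaCtggagGAgaacGaaGC
Rpl39l: cCaagCgGagacaTtggagACgaacCaaAT

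Reads on genes numbered 283461 to 907489 in the Direct RNA libraries and 948657 to 2088592 in the cDNA libraries. A count of 3 reads was taken as the floor, which is 3.31 to 10.6 CPM (counts scaled to a library total of 1e+06 reads on genes) in Direct RNA and 1.44 to 3.16 CPM in cDNA. The labels fitted the marker genes. All 8 pluripotency markers were lower at Day4 with both kits, their summed level going from between 10745 and 23567 CPM to between 82.7 and 918 CPM, and 7 of 7 (Direct RNA) and 8 of 8 (cDNA) tested RA-response genes were higher. The 6 neural markers summed to 43.8 to 81.3 CPM at Day4, below the 86.4 to 189 CPM of Undiff. Tubb3 made up most of the Undiff sum and fell with both kits, from 164 and 127 CPM to 10.6 and 14.9 CPM in Direct RNA and from 69.6 and 162 CPM to 28.8 and 22.1 CPM in cDNA. Nes had 5.74 and 12.1 CPM and then 38.8 and 54.2 CPM in Direct RNA, and 1.05 and 2.39 CPM and then 11.4 and 15.4 CPM in cDNA, and did not pass the test (adjusted p = 0.113 and 0.160). The 6 mesenchyme and fibroblast markers summed to 12.6 to 35.3 CPM in Undiff and 319 to 3073 CPM in Day4, and 5 of 5 (Direct RNA) and 4 of 5 (cDNA) tested were higher. Of the 8 extraembryonic endoderm markers, 5 of 7 tested were higher in Direct RNA and 3 of 6 in cDNA, and Apoe was lower with both. Their sum, mostly Apoe in Undiff, was 473 to 1117 CPM in Undiff and 418 to 1150 CPM in Day4, and Gata6 went from 0 to 427 and 332 CPM in Direct RNA and to 47.0 and 74.6 CPM in cDNA. The 4 endothelium markers summed to 53.8 to 149 CPM in Undiff and 39.4 to 207 CPM in Day4, with 1 of 3 tested higher in Direct RNA (Kdr) and 1 of 3 lower in cDNA (Plvap). The 4 blood markers summed to 0 in Undiff and 162 to 699 CPM in Day4, from 1 gene, with the other 3 at 0 throughout. The part of such a change in cell types in the results below was not tested. In bulk RNA, fewer cells of a type and less RNA per cell cannot be told apart.

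Ribosomal protein genes took between 4.49% and 7.02% of the reads on genes. In Direct RNA the states overlapped. The Direct RNA share was 5.30% (95% Wilson interval 5.23 to 5.38) and 5.81% (5.76 to 5.86) in the Undiff replicates, and 4.49% (4.42 to 4.57) and 6.40% (6.35 to 6.46) in the Day4 replicates. The Day4 replicates thus lay on either side of both Undiff replicates. With cDNA the share was 7.02% (6.97 to 7.08) and 6.37% (6.33 to 6.40) in Undiff and 6.00% (5.96 to 6.04) and 5.05% (5.02 to 5.08) in Day4. Both cDNA Day4 libraries lay below both cDNA Undiff libraries. The group means were 5.55% ± 0.36, 5.45% ± 1.35, 6.69% ± 0.465 and 5.52% ± 0.669 (SD, n = 2 each) in the same order of groups. The intervals cover the counting error of reads only. They leave out the spread between replicates and, in cDNA, PCR copies of the same molecule.

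The members were far from equal in level. Of the 81 genes, 4 (Rpl26, Rpl30, Rpl34 and Rps27) had no read in any library, and 27 had fewer than 10 reads in at least 1 library. The 10 most abundant held 71.7% of the members' reads in Direct RNA and 61.3% in cDNA. In each group, levels of the detected members had an SD of 2.26 to 2.77 on the log2 CPM scale. Per kilobase of the principal transcript, Rpl8, Rpl32, Rps15, Rps9, Rpl22 and Rplp1 were among the members with the highest mean levels over the 8 libraries, from 6098 CPM per kb for Rpl8 down to 3737 for Rplp1. The kits differed in this order. Rpl32 had a mean of 8653 CPM per kb in Direct RNA and 2467 in cDNA, Rpl8 had 5641 and 6555, and Rps14 had 417 and 5675. The lowest detected member was Rpl3l, a muscle-restricted copy of Rpl3, at 1.05 CPM per kb. Libraries of neighbours among the 6 highest genes named overlapped, so their order is not separated beyond the spread.

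**Figure D1:**
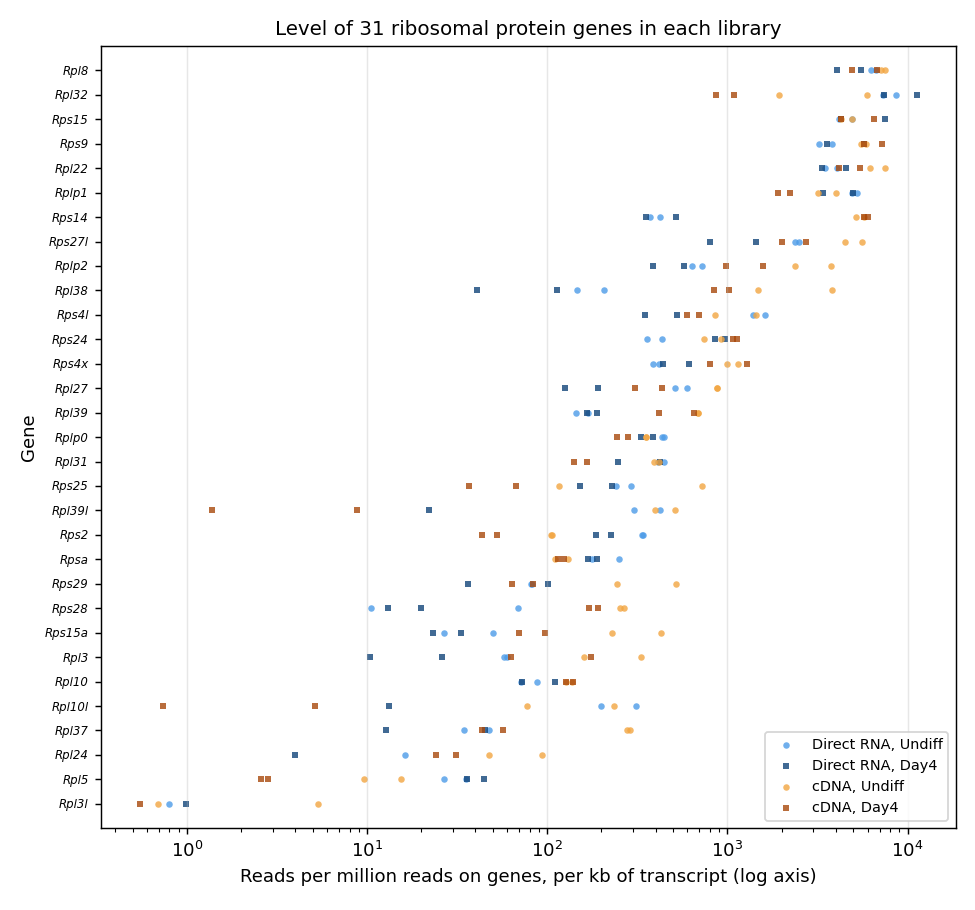
Level of 31 of the detected ribosomal protein genes in each library, in CPM per kilobase of the principal transcript (log axis; a library with no read has no point). Genes are ordered by their mean over the 8 libraries, from Rpl8 (6098) at the top to Rpl3l (1.05), and circles are Undiff and squares Day4.

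Rpl8, a large-subunit protein next to the catalytic centre (chr15:76904078-76906314, plus strand, 5 exons), had 5369 and 5676 CPM in Direct RNA Undiff and 3475 and 4683 CPM in Direct RNA Day4. With cDNA it had 6353 and 6051 CPM in Undiff and 5738 and 4170 CPM in Day4. It was lower in both Day4 replicates with each kit, by a log2 fold change of -0.54 ± 0.25 (SE) in Direct RNA and -0.62 ± 0.38 in cDNA, which did not pass the test (DESeq2, adjusted p = 0.178 and 0.389).

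High levels went with the absence of near-identical copies. Each member's coding sequence was compared with all annotated transcripts, and copies that cover at least 90% of it were kept. The closest copy was below 98% identical for 17 members, and 12 of these 17 had a mean above 1000 CPM, with a median of 2292 CPM. The other 64 members had a closest copy of at least 98% identity, of which 4 were above 1000 CPM, with a median of 117 CPM. The limit of 98% was set after the values had been seen. Across the 81 genes, the number of copies with at least 95% identity correlated with the log2 level at -0.42 (Spearman) and -0.27 (Pearson). Genes are not independent replicates here, and the copies of a gene share its base composition and length. In these libraries 20.4 to 28.0% of the aligned reads were set aside for low mapping quality, and how many of these came from ribosomal protein mRNAs was not tested.

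**Figure D2:**
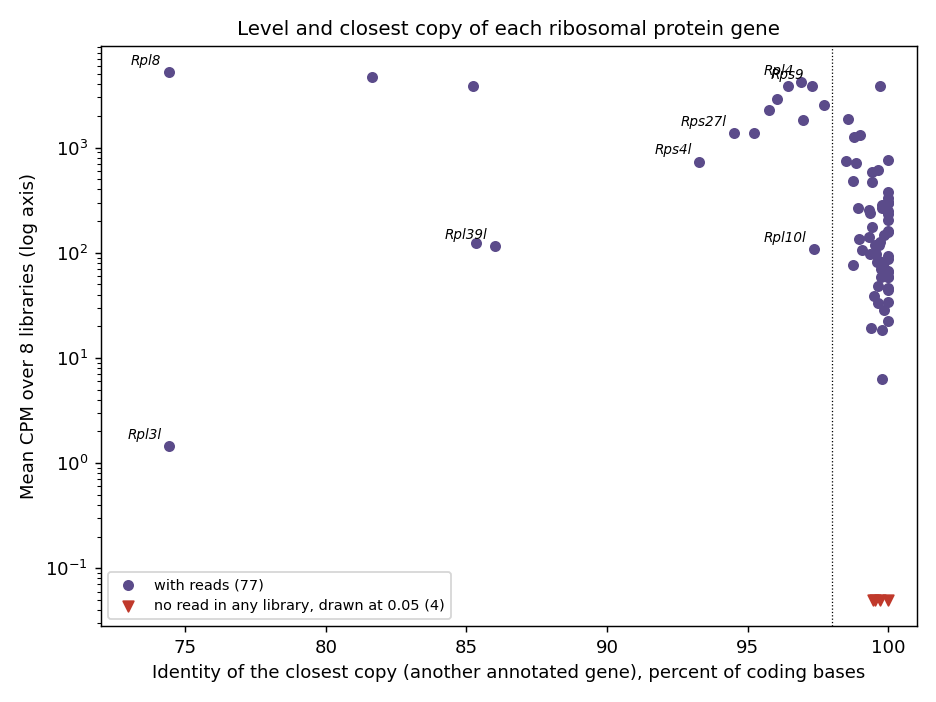
Mean level of each member over the 8 libraries (CPM, log axis) against the identity of its closest copy in another annotated gene (percent over the coding sequence). The 4 genes without a read all lie right of the dotted line at 98%, and 12 of the 17 genes left of it lie above 1000 CPM.

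The 4 genes without a read each had such a copy. Rps27, a zinc-finger protein of the small subunit (chr3:90212522-90213651, minus strand, 5 exons), is 100% identical in its coding sequence to Rps27rt, which also had no read in any library. Rpl34 is 99.4% identical to Rpl34-ps1, likewise at 0. The closest copies of Rpl26 and Rpl30 were 99.5% and 99.7% identical. For these genes 0 reads allow at most 1.44 CPM in the deepest library and 10.6 CPM in the shallowest, as far as reads that could be assigned are concerned. Rpl37 and its copy Rpl37rt are 99.7% identical, and both rows held reads, so the value of either is uncertain.

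With Direct RNA few members changed between states. Of 73 members with a mean normalised count of at least 5, 1 was a differentially expressed gene (DEG) with a higher level at Day4, against 9.54% of all genes tested. To be a DEG, a gene needed an adjusted p of at most 0.05 together with a log2 change of 1 or more in either direction. Another 5 members were lower, or 6.85%, against 7.67% of all genes. Dropping the threshold on the fold change left these counts as they were, against 9.65% higher and 8.12% lower of all genes. The median log2 fold change of the members was -0.33, against 0.03 for all 9646 genes tested, and 50 of the 73 values were below 0. With edgeR 13 members were lower (17.8%), against 15.1% of all genes, and 1 was higher, against 18.7%. The count of 5 was 1 without Undiff replicate 2 (1.39%) and 2 without Undiff replicate 1 (2.7%), where 1.42% and 2.45% of all genes were lower. It was 4 without Day4 replicate 1 (5.41%) and 5 without Day4 replicate 2 (6.85%), against 4.02% and 3.14% of all genes. With a replicate block it was 5 (6.85%), against 4.02% of all genes, so whether the members' share lay above or below that of all genes depended on the setting. When genes below 10 reads in any library were dropped, 3 of 55 were lower (5.45%), against 7.58% of all genes, and the median turned to 0.07.

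The gene that rose was Rps24, a small-subunit protein needed for maturation of the 18S rRNA (chr14:24487125-24496959, plus strand). It had 700 and 577 CPM in Direct RNA Undiff and 1379 and 1563 CPM in Direct RNA Day4, so the states did not overlap. Its log2 fold change was 1.10 ± 0.26 (adjusted p = 0.000665). Without Undiff replicate 2 it was 0.96 (adjusted p = 0.355), and the call was also lost without Undiff replicate 1 or Day4 replicate 2. With cDNA, Rps24 had 1479 and 1200 CPM in Undiff and 1743 and 1836 CPM in Day4. The cDNA states did not overlap either, but the log2 fold change was 0.08 ± 0.37 (adjusted p = 0.951).

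The 5 lower members were the paralogues Rpl10l, Rpl39l, Rps4l and Rps27l, and Rpl27. All 5 were also DEGs with a lower level in cDNA. Rpl10l, a single-exon copy of the X-linked Rpl10 (chr12:66283379-66284401, minus strand), had 204 and 320 CPM in Direct RNA Undiff and 0 and 13.6 CPM in Direct RNA Day4. With cDNA it went from 79.1 and 239 CPM to 0.759 and 5.30 CPM. The log2 fold changes were -4.27 ± 1.10 (adjusted p = 0.00206) and -5.64 ± 0.67 (adjusted p = 1.26e-14).

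Rpl10 itself (chrX:74270812-74273135, plus strand, 6 exons), which joins the large subunit late in its assembly, had 57.4 and 70.5 CPM in Direct RNA Undiff and 88.2 and 58.3 CPM in Direct RNA Day4. With cDNA it had 101 and 109 CPM in Undiff and 111 and 102 CPM in Day4. The states overlapped with both kits, and the log2 fold changes were 0.04 ± 0.56 and -0.30 ± 0.43 (adjusted p = 0.985 and 0.867). In Undiff Direct RNA libraries the Rpl10l row thus held more reads than that of Rpl10. Rpl10 has 9 copies of at least 95% identity and Rpl10l has 1.

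Rpl39l (chr16:10170226-10174911, plus strand, 3 exons), whose product lines the exit tunnel in place of Rpl39, had 166 and 231 CPM in Direct RNA Undiff and 0 and 12.2 CPM in Direct RNA Day4. In cDNA it fell from 217 and 283 CPM to 0.759 and 4.81 CPM. The log2 fold changes were -4.21 ± 1.01 (adjusted p = 0.000727) and -6.44 ± 0.59 (adjusted p = 1.48e-24), the lowest value of any tested member in cDNA. Rpl39 (chrX:37082520-37085402, minus strand) had 103 and 88.2 CPM in Direct RNA Undiff and 102 and 115 CPM in Day4. Its cDNA levels were 420 and 420 CPM in Undiff and 256 and 399 CPM in Day4. The log2 fold changes of Rpl39 were 0.10 ± 0.47 and -0.69 ± 0.38 (adjusted p = 0.939 and 0.296).

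The Direct RNA values of both copies depended on the libraries used. Without Undiff replicate 2, which leaves a single Undiff library, the log2 fold changes of Rpl10l and Rpl39l were -2.36 and -2.38. Thinned to the smallest library, Rpl10l gave -3.51 (adjusted p = 0.0799). Both genes fell with the pluripotency markers, and the part of the loss of pluripotent cells in their change was not tested.

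Rps4l, a single-exon copy of Rps4x (chr6:148354656-148355598, plus strand), had 1093 and 1279 CPM in Direct RNA Undiff and 275 and 415 CPM in Direct RNA Day4. With cDNA it had 671 and 1134 CPM in Undiff and 548 and 469 CPM in Day4. The log2 fold changes were -1.85 ± 0.30 (adjusted p = 8.78e-08) and -1.11 ± 0.40 (adjusted p = 0.0479). The cDNA call was lost without either Undiff replicate, and scaled by total reads the value was -0.82 (adjusted p = 0.190). Rps4x (chrX:102184941-102189394, minus strand) had 379 and 407 CPM in Direct RNA Undiff and 427 and 595 CPM in Day4, with 970 and 1113 CPM and then 781 and 1261 CPM in cDNA. Its log2 fold changes were 0.28 ± 0.32 and -0.37 ± 0.37 (adjusted p = 0.778 and 0.725).

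Rps27l, a copy of Rps27 that responds to p53 (chr9:66946086-66949516, plus strand, 5 exons), fell from 1182 and 1242 CPM to 402 and 716 CPM in Direct RNA. In cDNA it fell from 2783 and 2257 CPM to 1360 and 1009 CPM. The log2 fold changes were -1.19 ± 0.31 (adjusted p = 0.00276) and -1.38 ± 0.39 (adjusted p = 0.00669). They were -0.78 without Direct RNA Day4 replicate 1 (adjusted p = 0.148) and -1.05 without cDNA Day4 replicate 2 (adjusted p = 0.330). Rpl27, a large-subunit protein with no paralogue among the members (chr11:101442298-101445529, plus strand), fell from 316 and 365 CPM to 77.6 and 118 CPM in Direct RNA and from 539 and 535 CPM to 265 and 189 CPM in cDNA. Its log2 fold changes were -1.84 ± 0.39 (adjusted p = 7.84e-05) and -1.52 ± 0.40 (adjusted p = 0.00273). All Day4 libraries of both genes lay below all Undiff libraries of the same kit.

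Rpl3, a core large-subunit protein (chr15:80077791-80091868, minus strand), had 77.5 and 80.4 CPM in Direct RNA Undiff and 14.1 and 35.3 CPM in Direct RNA Day4, and in cDNA 215 and 448 CPM in Undiff and 85.0 and 236 CPM in Day4. Its log2 fold changes were -1.60 ± 0.65 and -1.36 ± 0.49 (adjusted p = 0.0962 with Direct RNA and 0.0492 with cDNA), and the cDNA states overlapped. Without cDNA Day4 replicate 1 the cDNA value was -0.81 (adjusted p = 0.778), and with edgeR the Direct RNA value was -1.61 (adjusted p = 0.00181). Rpl3l reached at most 7.38 CPM in any library, close to the floor, and no change is read from it.

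**Figure D3:**
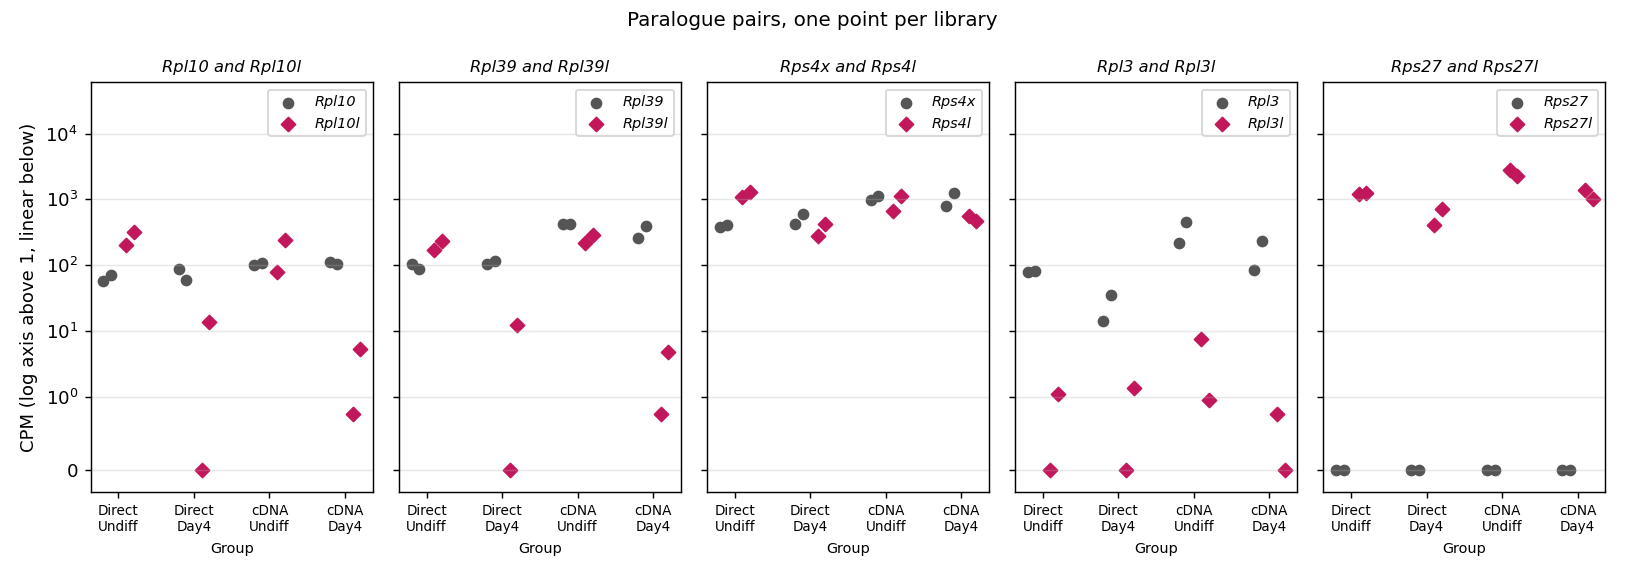
CPM of 5 ribosomal protein genes (grey circles) and their paralogues (red diamonds), with 1 point for each library and 2 libraries in each group (log axis above 1 CPM, linear below). Rpl10l and Rpl39l drop from between 79.1 and 320 CPM in Undiff to at most 13.6 CPM in Day4 with both kits, while the points of Rpl10 and Rpl39 stay between 57.4 and 420 CPM.

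With cDNA, lower levels at Day4 were common among the members. Of 76 tested members, 33 were DEGs with a lower level (43.4%), against 9.24% of all 10271 genes tested, and 0 were higher, against 8.69%. The median log2 fold change of the members was -1.03, against 0.00 for all genes, and 71 of the 76 values were below 0. The threshold on the adjusted p alone gave the same counts. At an unadjusted p of at most 0.05, 43 were lower and 0 higher, against 16.1% and 15.1% of all genes. With edgeR 38 were lower and 0 higher, against 15.6% and 17% of all genes. The 33 comprised 20 of the large subunit and stalk and 13 of the small subunit. The count fell to between 7 and 22 when single libraries were left out, with 8 without Undiff replicate 1 (10.5% of members against 4.22% of all genes), 15 without Day4 replicate 1 (19.7% against 4.08%) and 7 without Day4 replicate 2 (9.21% against 3.93%). The median stayed between -1.05 and -0.86. Thinning all libraries to the smallest total gave 14 (18.7% against 4.5%). Scaling by total reads gave 19 (25% against 6.34%), moved the median of all genes to 0.33 and that of the members to -0.72, and raised the share of higher genes among all DEGs from 48.5% to 65.8%.

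The share of aligned reads set aside for low mapping quality moved with this result. It was 28.0% and 27.6% in cDNA Undiff and 24.8% and 22.5% in cDNA Day4, whereas the Direct RNA states overlapped (23.5% and 24.2% in Undiff, 20.4% and 25.0% in Day4). The part of mapping in the result was not tested. Of members whose closest copy was below 98% identical, 6 of 16 tested were lower in cDNA (median -0.73), and 27 of 60 with a closer copy (median -1.13).

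After Rpl39l and Rpl10l, the lowest log2 fold changes of the tested members in cDNA were those of Rps25, Rpl37, Rps29 and Rpl5. Rps25, a small-subunit protein needed for some internal ribosome entry sites (chr9:44407139-44410427, plus strand), had 415 and 67.5 CPM in cDNA Undiff and 21.2 and 38.5 CPM in cDNA Day4. Its log2 fold change was -2.96 ± 1.06 (adjusted p = 0.0469), and without Undiff replicate 1 it was -1.45 (adjusted p = 0.262). With Direct RNA it had 169 and 140 CPM in Undiff and 88.2 and 132 CPM in Day4.

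Rpl37, a zinc-binding large-subunit protein (chr15:5116645-5119140, plus strand), had 232 and 240 CPM in cDNA Undiff and 47.8 and 36.1 CPM in cDNA Day4, a log2 fold change of -2.75 ± 0.43 (adjusted p = 1.76e-08). With Direct RNA it had 28.7 and 39.7 CPM in Undiff and 10.6 and 38.0 CPM in Day4. The row of its copy Rpl37rt held far more reads, with 7234 and 4538 CPM in cDNA Undiff and 6782 and 2479 CPM in cDNA Day4, and its states overlapped, so the change of Rpl37 is uncertain. Rps29, a small zinc-binding protein of the small subunit (chr12:69157722-69159186, minus strand), had 201 and 95.8 CPM in cDNA Undiff and 32.6 and 25.0 CPM in Day4, a log2 fold change of -2.62 ± 0.52 (adjusted p = 1.91e-05). Its Direct RNA levels overlapped, with 31.6 and 32.0 CPM in Undiff and 14.1 and 39.3 CPM in Day4.

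Rpl5, which with Rpl11 and 5S rRNA forms the particle that binds Mdm2 (chr5:107900502-107909005, plus strand), had 31.6 and 19.6 CPM in cDNA Undiff and 5.31 and 5.78 CPM in cDNA Day4. The log2 fold change was -2.38 ± 0.74 (adjusted p = 0.0146), and the call was lost without either Undiff replicate (adjusted p = 0.113 and 0.371) and with a replicate block (adjusted p = 0.0910). In Direct RNA Rpl5 had 54.5 and 72.7 CPM in Undiff and 91.7 and 73.2 CPM in Day4, where both Day4 libraries were above both Undiff libraries. Rpl32, an abundant member per kilobase (chr6:115805505-115808747, minus strand), had 3089 and 1006 CPM in cDNA Undiff and 445 and 562 CPM in cDNA Day4, and 3797 and 4462 CPM in Direct RNA Undiff and 3824 and 5812 CPM in Direct RNA Day4. Its log2 fold changes were -2.33 ± 0.49 and 0.12 ± 0.27 (adjusted p = 7.52e-05 with cDNA and 0.930 with Direct RNA). Without cDNA Undiff replicate 1 the cDNA value was -1.31 (adjusted p = 0.0800). Exons of Rpl5, Rpl32 and Rps25 overlap exons of genes on the opposite strand (Fam69a for Rpl5, Cand2 for Rpl32, Ccdc84 and Trappc4 for Rps25). Strand was used to count the Direct RNA reads, whereas no setting for the gene counts of cDNA was named, so reads of both strands may not have been told apart there.

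Of the stalk proteins, Rplp2 and Rplp1 passed the test in cDNA and Rplp0 did not, and differences between them were not tested. Rplp2 (chr7:141447370-141451585, plus strand) fell in cDNA from 1592 and 997 CPM to 665 and 414 CPM (log2 fold change -1.54 ± 0.44, adjusted p = 0.00667, and 0.343 without Day4 replicate 2), and with Direct RNA it had 267 and 305 CPM in Undiff and 162 and 243 CPM in Day4. Rplp1 (chr9:61913284-61914542, minus strand) fell in cDNA from 1594 and 1997 CPM to 952 and 1116 CPM (log2 fold change -1.11 ± 0.35, adjusted p = 0.0199). Without Day4 replicate 1 the adjusted p was 0.330, and scaled by total reads the value was -0.79 (adjusted p = 0.152). Its Direct RNA levels were 2454 and 2617 CPM in Undiff and 1693 and 2497 CPM in Day4. In Direct RNA the log2 fold changes of Rplp2 and Rplp1 were -0.58 ± 0.37 and -0.37 ± 0.27 (adjusted p = 0.419 and 0.522). Rplp0, the stalk base that anchors both (chr5:115559467-115563727, plus strand), had 479 and 478 CPM in cDNA Undiff and 332 and 384 CPM in Day4, a log2 fold change of -0.74 ± 0.37 (adjusted p = 0.218). In Direct RNA it had 591 and 603 CPM in Undiff and 452 and 522 CPM in Day4 (-0.39 ± 0.29, adjusted p = 0.535).

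Rpl31, a protein at the tunnel exit (chr1:39367842-39371911, plus strand), had 205 and 192 CPM in cDNA Undiff and 68.3 and 81.4 CPM in cDNA Day4, a log2 fold change of -1.71 ± 0.41 (adjusted p = 0.000747). In Direct RNA it had 218 and 202 CPM in Undiff and 120 and 205 CPM in Day4, a log2 fold change of -0.43 ± 0.41 (adjusted p = 0.687). Without cDNA Day4 replicate 1 the adjusted p of the cDNA value was 0.0798. Exons of Rpl31 overlap those of Tbc1d8 on the opposite strand.

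Among the abundant members that did not pass in cDNA were Rps9, at the mRNA entry site, and Rps15, near the decoding site. Rps9 had 4416 and 4149 CPM in cDNA Undiff and 5444 and 4283 CPM in Day4 (log2 fold change -0.13 ± 0.38, adjusted p = 0.938), and Rps15 had 2464 and 2151 CPM and then 3242 and 2124 CPM (-0.08 ± 0.40, adjusted p = 0.951). Scaled by total reads both cDNA values turned positive, at 0.18 and 0.21. In Direct RNA their log2 fold changes were 0.30 ± 0.29 and 0.26 ± 0.30 (adjusted p = 0.698 and 0.778). Rpsa, the laminin-receptor protein of the small subunit (chr9:120127689-120132369, plus strand), had 177 and 208 CPM and then 184 and 198 CPM in cDNA (-0.33 ± 0.39, adjusted p = 0.799).

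**Figure D4:**
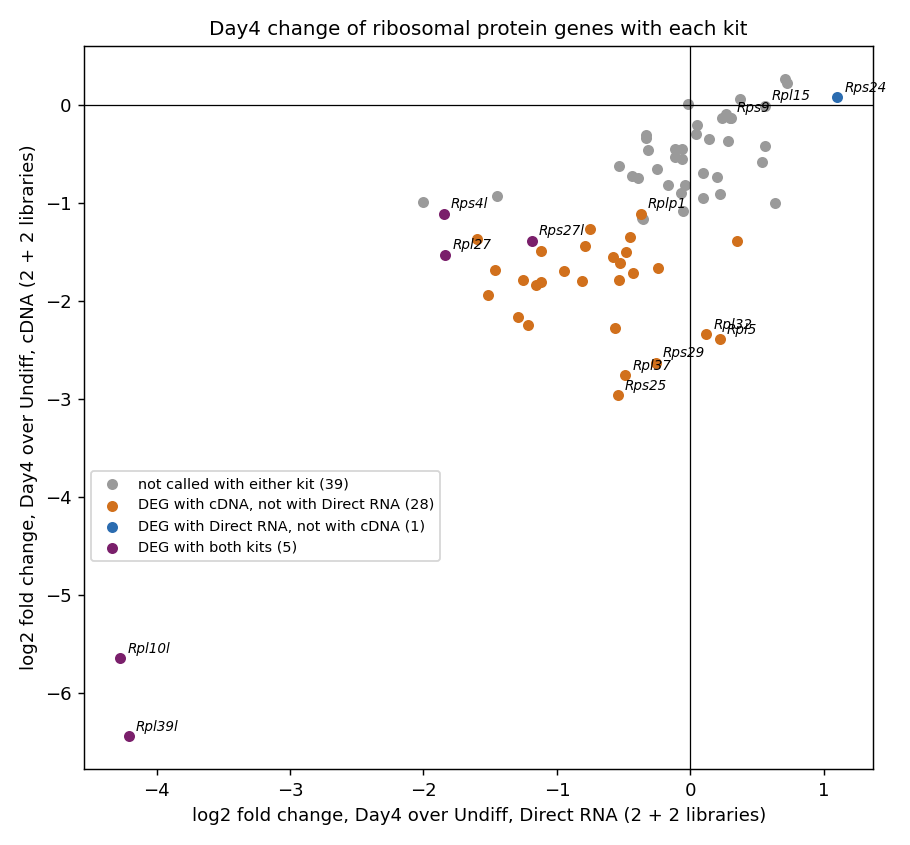
Log2 fold change of Day4 over Undiff for the 73 members tested with both kits, Direct RNA on the horizontal and cDNA on the vertical axis, each from 2 and 2 libraries. The 5 genes called with both kits lie in the lower left, and orange points are the 28 genes called in cDNA and not in Direct RNA, whose height of -1 or less follows from the call.

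The difference between kits in the Day4 change was tested directly. In the interaction of platform and state over all 8 libraries (DESeq2), 0 of 77 members passed, against 0.0116% of all genes. At an unadjusted p of at most 0.05 there were 13 of the 77 members, against 161 of the 17267 genes (0.932%). With edgeR 2 members passed, Rps25 and Rpl32, among 14 genes, and 11 members had an unadjusted p of at most 0.05 against 2.66% of all genes. The members called in cDNA and not in Direct RNA are therefore not shown to differ between the kits by the DESeq2 test. The median interaction of the members was -0.68 on the log2 scale, against -0.01 for all genes.

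Start-site letters were set beside these changes. The 17 members with CTTTC near a start had a median log2 fold change of -1.32 in cDNA, with 8 of 16 tested lower, and the 43 without it one of -0.90, with 14 of 41 lower. In Direct RNA the medians were -0.46 and -0.17, with 1 of 16 and 3 of 41 lower. The letters were chosen after the values had been seen, and no test was made.

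Between kits, most members had more normalised reads with cDNA. In the fit of the 8 libraries that also held state, 46 of 76 members were DEGs with a higher level in cDNA (60.5%), against 24.7% of the 10426 genes tested, and 3 were lower (3.95%), against 26.6%. In either direction 51.3% of all genes were DEGs. By the adjusted p alone 54 were higher and 3 lower, against 28.8% and 28.9% of all genes, or 57.7% in either direction. The median log2 difference was 1.25 for the members and -0.02 for all genes. Scaling by total reads moved the median of all genes to -0.77 and that of the members to 0.51, with 25 higher and 7 lower (32.9% and 9.21%, against 10.7% and 41.5% of all genes), and the share of higher genes among all DEGs went from 48.1% to 20.5%. When genes below 10 reads in any library were dropped, 17 of 54 members were higher (31.5%), against 23.2% of all genes.

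The largest difference was that of Rps14, a small-subunit platform protein. It had 221, 252, 212 and 310 CPM in the Direct RNA libraries and 3085, 3420, 3437 and 3609 CPM in the cDNA libraries, in the order Undiff and Day4 with replicates 1 and 2 in each. All 4 cDNA libraries lay far above all 4 Direct RNA libraries, with a log2 difference of 4.47 ± 0.19 (adjusted p = 8.01e-116). Rpl38, a large-subunit protein known for its role in Hox mRNA translation (chr11:114668524-114672331, plus strand), had 71.7, 50.7, 14.1 and 39.3 CPM with Direct RNA and 1315, 510, 350 and 291 CPM with cDNA, a log2 difference of 4.38 ± 0.41 (adjusted p = 3.49e-25). Rps28 had 2.87, 18.7, 3.53 and 5.42 CPM with Direct RNA, of which 2 libraries were at or below their floor, and 72.7, 68.9, 51.6 and 46.2 CPM with cDNA. Rpl24 had 0, 10, 0 and 2 reads with Direct RNA, of which 3 libraries were below the floor of 3 reads, and 60, 67, 28 and 34 reads with cDNA. The fitted log2 differences of Rpl24 and Rps28, 3.47 ± 0.62 and 3.42 ± 0.46, rest on few Direct RNA reads. Rps15a and Rpl3 had log2 differences of 3.07 ± 0.44 and 2.94 ± 0.36 (adjusted p between 4.98e-15 and 1.76e-07 for these 4 genes).

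The 3 members lower in cDNA were Rpl5 (log2 difference -1.66 ± 0.51, adjusted p = 0.00419), Rpl32 (-1.27 ± 0.49, adjusted p = 0.0263) and Rps2 (-1.13 ± 0.23, adjusted p = 4.92e-06). Rps2, a protein at the mRNA entry site (chr17:24718116-24721929, plus strand), had 339, 336, 187 and 226 CPM with Direct RNA and 106, 104, 43.2 and 52.5 CPM with cDNA, and its libraries did not overlap between kits. Without cDNA Day4 replicate 2 the value of Rpl32 was -0.82 (adjusted p = 0.452) and that of Rpl5 was -1.22 (adjusted p = 0.0560). All 3 genes are among the 14 members whose exons overlap exons of an opposite-strand gene (Snhg9 for Rps2). Of these 14, 5 were higher and 3 lower in cDNA, with a median of 0.50. Of the 62 other members tested, 41 were higher and 0 lower, with a median of 1.33.

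Transcript length moved with the kit difference in all genes. Of all genes with a longest coding transcript of up to 1000 bases, 423 of 608 (69.6%) were higher in cDNA, and of the members in that class 30 of 43 (69.8%). Above 1000 bases the shares were 21.8% of all genes and 16 of 33 members (48.5%). Over the 76 members, the log2 difference correlated with the log2 length at -0.25 (Spearman) and -0.23 (Pearson), given as a description across genes. The part of length in the kit difference was not tested.

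**Figure D5:**
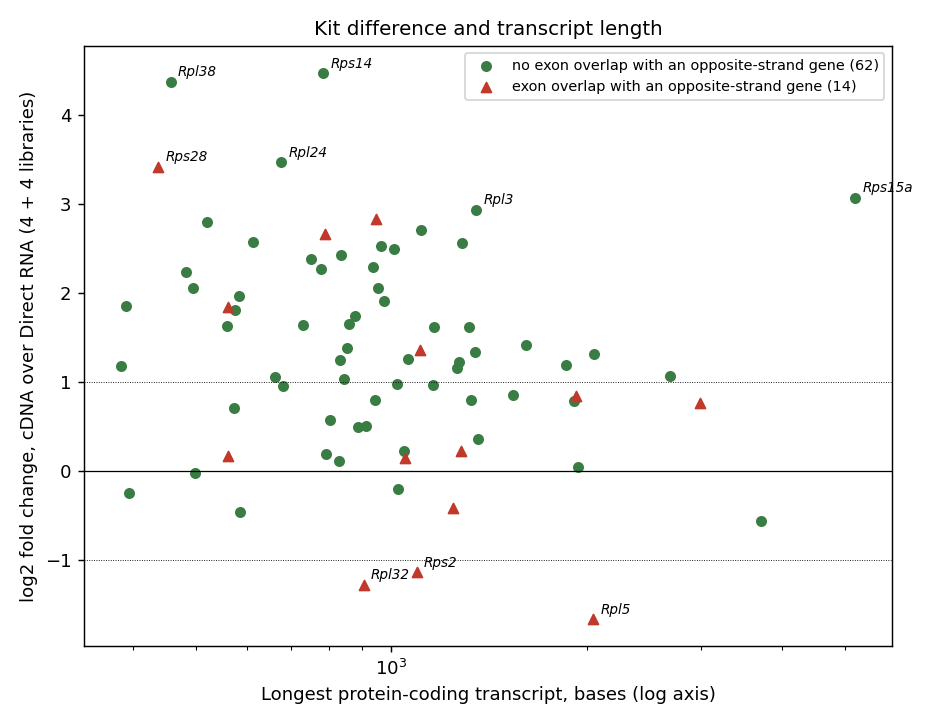
Log2 difference of cDNA over Direct RNA for the 76 tested members (4 and 4 libraries) against the length of the longest protein-coding transcript (bases, log axis), with dotted lines at 1 and -1. Red triangles are the 14 members with exon overlap on the opposite strand, which include the 3 genes below -1, Rpl5, Rpl32 and Rps2.

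Genes that work with the ribosome were compared as lists. Of 31 tested ribosome assembly factors, 21 were lower and 0 higher at Day4 in Direct RNA, and 15 were lower and 0 higher in cDNA, with medians of -1.44 and -1.17. Of all genes tested, 7.67% were lower and 9.54% higher in Direct RNA, and 9.24% and 8.69% in cDNA. Ncl, the nucleolar protein nucleolin, fell from 3165 and 2912 CPM to 1122 and 850 CPM in Direct RNA (log2 fold change -1.72 ± 0.25, adjusted p = 9.74e-10) and from 1231 and 2497 CPM to 841 and 827 CPM in cDNA (-1.43 ± 0.40, adjusted p = 0.00605). Of 76 mitochondrial ribosomal protein genes, 8 were lower in Direct RNA and 9 in cDNA, with 0 higher and medians of -0.59 and -0.60. The lower shares are near those of all genes. By kit 56 of them were higher in cDNA and 4 lower, against 24.7% and 26.6% of all genes. Their median log2 difference was 1.49, beside 1.25 for the cytosolic members, so a higher level in cDNA was not particular to the latter.

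Of 18 other mRNAs known for a TOP motif, Vim (vimentin) was higher with both kits and Npm1 (nucleophosmin) was lower in cDNA (log2 fold change -1.20 ± 0.36, adjusted p = 0.0126). In Direct RNA 4 passed the adjusted p alone with lower levels, none with a log2 fold change of 1 in size, against 8.12% of all genes. Eif4a2, a translation initiation helicase, passed the adjusted p alone with a higher level (log2 fold change 0.78 ± 0.28, adjusted p = 0.0443). So did Vim, against 9.65% of all genes. The medians of the list were -0.15 and -0.39. The translation elongation factor Eef1a1 had 17824 and 15684 CPM in Direct RNA Undiff and 24289 and 20238 CPM in Day4, a log2 fold change of 0.30 ± 0.23 (adjusted p = 0.539). Of 7 tested ribosomal proteins outside the symbol rule, 4 were lower in cDNA, against 9.24% of all genes. Among them were Fau, Rps3a1 and Rpl36al, with log2 fold changes of -2.03, -2.54 and -1.51. In Direct RNA Rpl36al alone passed the adjusted p (log2 fold change -0.87 ± 0.31, adjusted p = 0.0428), where 8.12% of all genes were lower. Of 8 translation control genes 1 was lower in Direct RNA and 2 in cDNA, where 7.67% and 9.24% of all genes were lower. No result is read from counts this small. Of the 3 genes of the ribosomal stress response, Trp53 (p53) was lower with both kits (log2 fold changes -1.66 ± 0.31 and -1.19 ± 0.38, adjusted p = 5.55e-06 and 0.0193), and Mdm2 and Cdkn1a did not pass.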

How the data were processed

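The deposited tables give 1 count per gene and library. Per the study's methods and the submitters' processing notes, the authors aligned the reads to mm10 with minimap2 and counted them with HTSeq, Direct RNA by strand, and a strand setting for the cDNA gene counts was not given in the sources used here. The 5 counters of unassigned reads were kept out of totals and tests. Counts were fitted in DESeq2 1.42.0 (R 4.3.3) with shrunken fold changes and no outlier or independent filtering, by state within each kit, by kit with state as a covariate, and for their interaction without shrinkage. DEGs were genes with a mean normalised count of 5 or more, a Benjamini-Hochberg adjusted p up to 0.05 and a log2 change of 1 or more either way. All adjusted p values are over all genes, and all unless named otherwise are from DESeq2. edgeR 4.0.16 with TMM, other scalings, a minimum of 10 reads, thinning, a replicate block and leaving out libraries were alternatives. A fit by state with a library left out had a single library in that group, so its spread came from the other state alone. The fits were tested on simulated data.

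GENCODE vM21 (GRCm38) matched 24027 of 24421 symbols (98.4%) and gave locations, lengths and copies. Start sites are from RefSeq. Wilson 95% intervals and the floor of 3 reads cover counting error only. The genes named were the 8 highest per kilobase, the 6 highest and 6 lowest changes past the adjusted p in each comparison (all where fewer), Rpl31, Rps24, the stalk proteins, Rpsa and the paralogue pairs, and others are given as examples chosen after their values were seen. A few genes that meet this rule are not reported here. Members and lists were chosen with earlier results of these data known.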

Additional observations from a re-analysis of the deposited data

Results flagged for a closer look

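For 4 members every Day4 library lay above every Undiff library in Direct RNA and below every Undiff library in cDNA. These are 5.26% of the 76 tested members, and 0.46% of the 10426 genes tested had this pattern. The opposite pattern was seen in 0 members and in 1.22% of all genes. The interaction of platform and state on the log2 scale was -1.80 for Rpl23 (DESeq2, unadjusted p = 0.00398), -2.79 for Rpl5 (0.00171), -1.16 for Rps23 (0.0394) and -1.07 for Rps26 (0.0166). None passed over all genes, with an adjusted p of 1 for each. Rpl23 had 187 and 175 CPM in Direct RNA Undiff and 222 and 270 CPM in Direct RNA Day4, and 600 and 274 CPM in cDNA Undiff and 211 and 207 CPM in cDNA Day4. The other genes were separated by small gaps. The nearest Undiff and Day4 libraries had 72.7 and 73.2 CPM for Rpl5 and 419 and 423 CPM for Rps26, both in Direct RNA. For Rps23 in cDNA they had 299.2 and 297.5 CPM.

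Of rows for pseudogenes and retrotransposed copies (names ending in ps and a number, or rt), some held reads in every library. The lowest number in any library was 466 reads for Rpl37rt, 180 reads for Rpl14-ps1 and 9 reads for Rps15a-ps6.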

How the results depend on the processing

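With 2 libraries in a group, single libraries and scaling set many of the calls. The causes of the shifts below were not tested. In Direct RNA, lower members numbered 13 with edgeR and 3 of 55 when genes below 10 reads in any library were dropped, where their median was 0.071. Leaving out single libraries gave 1 to 5 lower and 0 to 1 higher (1.42 to 4.02% and 2.84 to 4.57% of all genes), with a median of -0.51 to -0.05. In cDNA, lower members numbered 19 with total reads and 14 after thinning, and 7 to 22 without single libraries (3.93 to 4.38% of all genes), with a median of -1.05 to -0.86. After thinning, 31 members were higher by kit (41.3%) and 1 lower (1.33%), against 20.9% and 25.6% of all genes. By kit, higher members numbered 25 with total reads and 17 with at least 10 reads, and lower members 7 with total reads. Without single libraries they were 41 to 51 and 1 to 3 (22.5 to 24% and 22.8 to 24.5% of all genes). The kit median was 0.51 with total reads, 0.67 with at least 10 reads and 1.17 to 1.44 without single libraries. The interaction gave 2 members with edgeR and 0 to 2 without single libraries.

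Without the 100 most abundant other genes the share of reads was 6.61% in Direct RNA Undiff, 8.89% in cDNA Undiff and 6.93% in cDNA Day4. With pseudogene rows and proteins outside the rule it was 6.38% and 7.67% in the Undiff groups. Single libraries gave 5.30 to 5.81%, 4.49 to 6.40%, 6.37 to 7.02% and 5.05 to 6.00% in Direct RNA Undiff and Day4 and cDNA Undiff and Day4. The SD of log2 levels was 2.09, 2.12, 2.01 and 2.22 in these groups under that minimum, and 2.37 per kilobase in cDNA Undiff. The Spearman coefficient with length was -0.17 for the shortest principal transcript, a choice made after seeing the data.

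Signs turned for some genes, uncalled by state. In Direct RNA, Rpl10 was -0.0052 with edgeR, and leaving out single libraries gave -0.19 to 0.31 for Rpl10, -0.014 to 0.23 for Rpl39, -0.0014 to 0.55 for Rps4x, -0.23 to 0.45 for Rpl32, -0.21 to 0.68 for Rps15 and -0.11 to 0.66 for Rps9. In cDNA, total reads gave 0.014 for Rpl10, 0.21 for Rps15 and 0.18 for Rps9, at least 10 reads gave 0.084 for Rps15 and 0.047 for Rps9, thinning gave 0.016 for Rps15, and leaving out single libraries gave -0.14 to 0.24 for Rps24, -0.48 to 0.30 for Rps15 and -0.36 to 0.16 for Rps9. By kit, Rps15, higher by the adjusted p alone, was -0.052 with total reads.

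The methods have RNA of the same duplicates in both kits, but no source ties equal numbers to the same culture. Over 1395 genes their deviations had correlations of 0.21 between states in Direct RNA, 0.50 in cDNA, and 0.12 and -0.42 between kits in Undiff and Day4. The fit with the replicate block gave 1 higher and 5 lower members in Direct RNA (4.72% and 4.02% of all genes, median -0.33), 30 lower in cDNA (7.57%, median -1.04), 44 higher and 3 lower by kit (23.5% and 25%, median 1.24) and 0 for the interaction. Crossing the Day4 numbers in the kit block, chosen after seeing the data, gave 44 higher and 2 lower (23.6% and 25.1%).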
